A study of Mus musculus with 9 samples.

Results

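A set of 10 imprinted growth genes was followed in the cerebral cortex of mouse embryos lacking *Fzd3* or *Celsr3*. The members were set by name (*Igf2*, *H19*, *Peg3*, *Meg3*, *Dlk1*, *Grb10*, *Ndn*, *Plagl1*, *Mest* and *Igf2r*), and all 10 were found among the 14670 genes of the deposited table. *Fzd3* encodes a Frizzled receptor and *Celsr3* an atypical cadherin, and both act in planar polarity signalling. Cortex was taken at embryonic day 16.5 (E16.5) from embryos labelled control +/+, *Fzd3* -/- and *Celsr3* -/-, with 3 libraries of each genotype. The mice were on a mixed C57Bl/6 and CD1 background, and in the methods the controls could be heterozygous or wild-type littermates, although the labels give them as wild type. The strain of each parent was not given for single embryos, and the table holds 1 value per gene, so that the parental alleles cannot be told apart.

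Imprinted genes are expressed mainly from the maternal or the paternal copy, according to methylation marks set in the germ line. Many of them act on fetal growth, with paternally expressed genes such as *Igf2*, *Peg3*, *Mest*, *Dlk1* and *Plagl1* often promoting growth and maternally expressed genes such as *H19*, *Igf2r* and *Grb10* often restraining it. *Igf2* encodes a fetal growth factor, *Igf2r* the receptor that carries this factor to lysosomes, and *Grb10* an adaptor that dampens signalling from the insulin and IGF1 receptors. *Plagl1* encodes a zinc finger transcription factor of progenitors, *Ndn* a protein of postmitotic neurons, *Peg3* a further zinc finger protein and *Mest* an enzyme of the hydrolase fold. *Dlk1* encodes a membrane protein related to Notch ligands. *H19* and *Meg3* are long noncoding RNAs. In the brain *Grb10* is also known to be expressed from the paternal copy, in neurons.

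Values are CPM, read counts divided by library size and further scaled for each library by the authors. Within each library every value was, to within 0.1, a multiple of the same small step. Taking that step as 1 read, the libraries held between 39857305 and 69600589 reads on the listed genes, and 3 reads corresponded to 0.0427 to 0.0752 CPM, a limit that covers counting error only. The methods give 3 cortical samples of each genotype and state that animal experiments used at least 3 animals, but the labels do not name the embryo of each library, so *P* values measure the spread between these libraries. Differences were tested with limma on log2(CPM + 0.5), in a single fit of the 9 libraries, with *P* values adjusted over all 14670 genes and a threshold of 0.05. The added 0.5 makes differences of scarcely expressed genes smaller than their ratios.

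The mutated genes were examined as a check of the labels. *Celsr3* was at 196, 243 and 214 CPM in controls and at 122, 139 and 118 CPM in *Celsr3* mutants, with no overlap. *Fzd3* was at 58.0, 67.7 and 46.9 CPM in controls and at 46.5, 39.8 and 59.6 CPM in *Fzd3* mutants, so that its mRNA did not separate these libraries. The mutant allele lacks exon 3 and the table gives a value for the whole gene only, so this does not check the *Fzd3* label. Cortical markers were abundant in each library, and *Neurod6*, a transcription factor gene of excitatory neurons, was the highest of 10 with a mean of 872 CPM. None of the 11 listed markers of choroid plexus was in the table.

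A single library stood apart. *Celsr3* mutant library 4 was the highest of the 9 libraries, by at least 1.5 times the next, for 51 of 14382 genes whose mean reached 1 CPM. In the other 8 libraries this number lay between 0 and 25 genes. Both *Igf2* and *H19* were among the 51. So were the collagen genes *Col1a1*, *Col1a2* and *Col3a1*, which mark meningeal fibroblasts, the connective tissue cells that cover the cortex. Calls of *Igf2* and *Dlk1* that changed with this library are given with and without it.

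Genes of the list differed widely in level, as shown by CPM divided by the length of annotated exons in kb. This length joins the exons of all annotated transcripts (18.1 kb for *Meg3*, 3.69 kb for *Ndn*) and can exceed that of the transcripts present. The order between genes depends on it. In controls *Ndn* led with 39.3 ± 3.80 CPM per kb (s.d., n = 3), followed by *Mest* with 33.1 ± 1.00 and *Meg3* with 19.4 ± 2.34. *Grb10* and *Plagl1* were at 17.5 ± 2.13 and 17.0 ± 2.14 CPM per kb, and the ranges of *Meg3*, *Grb10* and *Plagl1* overlapped in controls. *Igf2r* and *H19* came next at 9.75 ± 0.541 and 8.70 ± 0.807 CPM per kb, also with overlapping ranges. *Peg3* stood at 5.42 ± 0.131 and *Igf2* at 4.39 ± 0.0842 CPM per kb, and their control libraries did not overlap. Without division by length the control order began with *Meg3*, *Grb10* and *Ndn*, and *H19* came 9th. *Dlk1* was far below the others at 0.108 ± 0.0375 CPM per kb, and only 0.457% of all genes had a lower mean CPM in controls. In *Fzd3* mutants *Ndn* and *Mest* kept the first ranks and *Plagl1* stood above *Grb10* in all 3 libraries. In *Celsr3* mutants only *Ndn*, *Mest* and *Dlk1* were apart from their neighbours in every library, and the upper ends of *H19* and *Igf2* came from library 4.

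**Figure D1:**
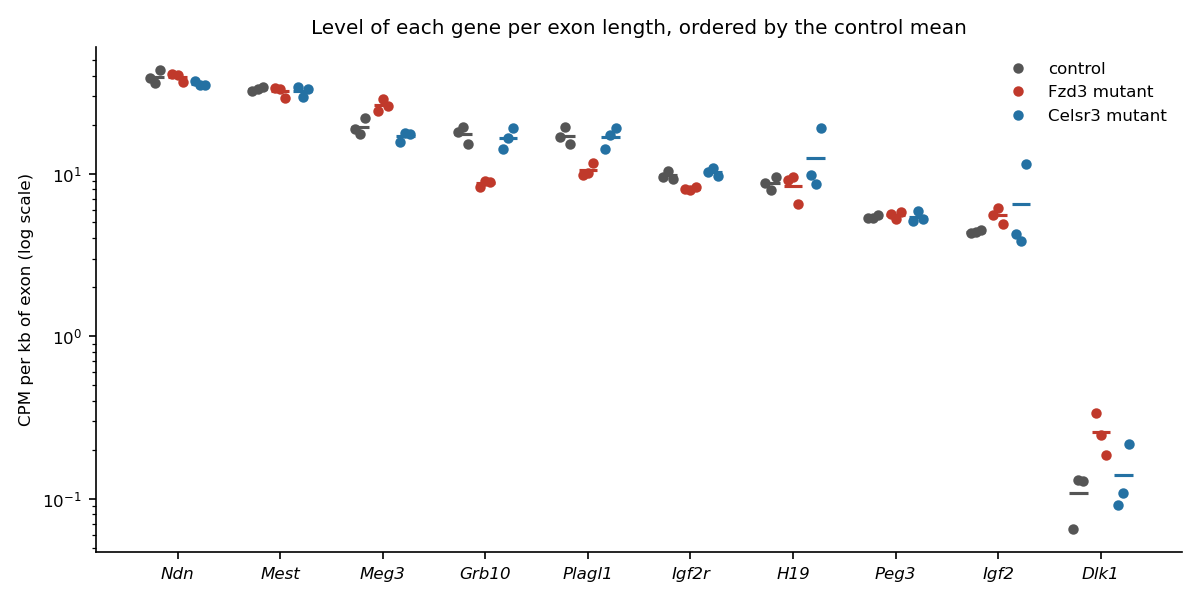
CPM per kb of exon (log scale) for the 10 genes in the order of their control means, with points for the libraries and short lines for the means of 3 libraries. *Ndn* led at 39.3 CPM per kb in controls and *Dlk1* came last at 0.108.

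In the *Fzd3* mutants *Grb10*, *Plagl1* and *Igf2r* fell, *Meg3* and *Dlk1* rose, and the other 5 genes did not pass the threshold. The mean of *Grb10* in the mutants was 0.497 times that in controls, and the mean of the scarce *Dlk1* was 2.38 times that in controls. Thus 3 of the 10 genes were lower, beside 14.8% of all genes, and 2 were higher, beside 15.0% of all genes. In 6 of the 10 genes the libraries of *Fzd3* mutants and controls did not overlap, beside 43.8% of all genes. Changes were common in the whole table, and whether the shares of these 10 genes differ from it was not tested.

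**Figure D2:**
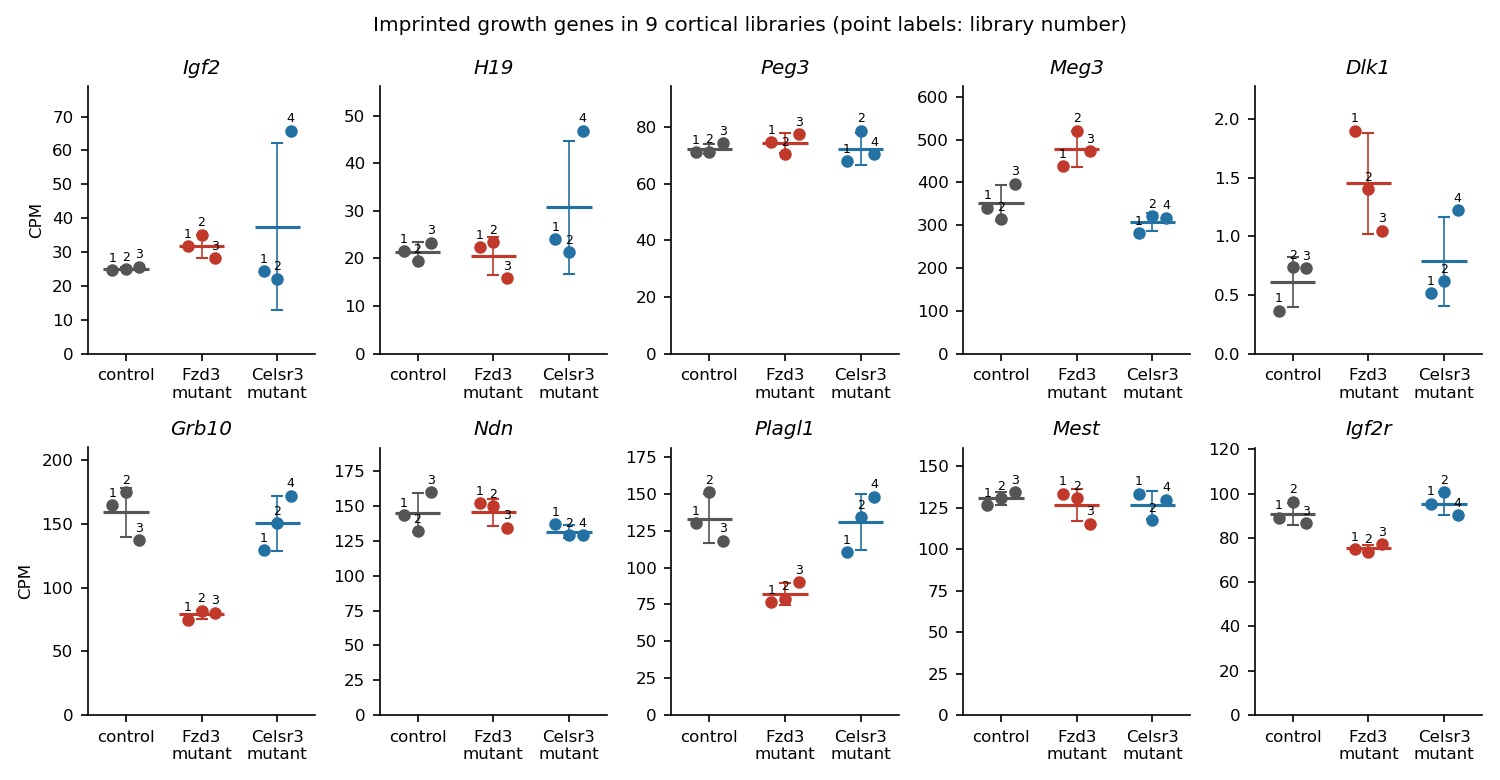
CPM of each gene in the 9 libraries, with the library number beside each point, the mean as a horizontal line and the s.d. as error bars (n = 3 per genotype). *Grb10*, *Plagl1* and *Igf2r* lay lower and *Meg3* and *Dlk1* higher in each *Fzd3* mutant library than in any control, and *Celsr3* mutant library 4 stood alone for *Igf2* and *H19*.

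*Grb10*, the adaptor that restrains insulin and IGF1 receptors, was at 165, 175 and 137 CPM in controls, 74.8, 81.7 and 80.3 CPM in *Fzd3* mutants and 129, 150 and 172 CPM in *Celsr3* mutants. Every *Fzd3* mutant library lay below every library of the other genotypes, whereas *Celsr3* mutants and controls overlapped. The difference between *Fzd3* mutants and controls was -0.999 on the log2 scale (standard error 0.10, limma adjusted *P* = 8.04e-05). *Plagl1* showed the same order of genotypes. It was at 130, 151 and 118 CPM in controls, 76.6, 78.9 and 90.4 CPM in *Fzd3* mutants and 110, 134 and 148 CPM in *Celsr3* mutants. Again the *Fzd3* mutant libraries were all lowest, and the remaining 6 libraries overlapped. The difference from controls was -0.69 (standard error 0.11, limma adjusted *P* = 0.00107), or 0.615 times the control mean.

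*Igf2r*, whose product removes IGF2, was at 89.1, 96.4 and 86.7 CPM in controls, 74.9, 73.7 and 77.1 CPM in *Fzd3* mutants and 95.5, 100.7 and 90.3 CPM in *Celsr3* mutants. The *Fzd3* mutant libraries were again the 3 lowest, with a smaller step to the controls. The difference was -0.27 (standard error 0.05, limma adjusted *P* = 0.00369). *Grb10* and *Plagl1* also went together within genotypes. Over the 9 libraries Pearson's r between them was 0.978, and for deviations from the genotype means it was 0.897, the highest among the 45 pairs for the first measure. For *Igf2r* the r of deviations with *Grb10* was only 0.13. These correlations describe 9 libraries that share genotypes and are given without a test.

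*Grb10* lies on chromosome 11 (chr11:11930508-12038683, minus strand, GRCm38), *Plagl1* on chromosome 10 (chr10:13060504-13131694, plus strand) and *Igf2r* on chromosome 17 (chr17:12682406-12769664, minus strand), so these 3 genes belong to separate domains. RefSeq start windows of 300 bases on GRCm38.p6 are shown for the pair that went together. Capitals mark the hexamer TGCCGC, searched on both strands, which ZFP57 binds in its methylated form at imprinting control regions. The windows are chr11:12037371-12037670 (minus strand) and chr10:13090582-13090881 (plus strand), and run over the start of transcription.
Grb10: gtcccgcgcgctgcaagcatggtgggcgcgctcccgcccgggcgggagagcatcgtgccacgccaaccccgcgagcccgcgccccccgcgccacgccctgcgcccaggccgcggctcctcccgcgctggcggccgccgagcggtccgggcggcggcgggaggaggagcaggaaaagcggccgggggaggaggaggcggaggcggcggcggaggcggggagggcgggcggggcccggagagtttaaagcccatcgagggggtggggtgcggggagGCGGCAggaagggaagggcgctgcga
Plagl1: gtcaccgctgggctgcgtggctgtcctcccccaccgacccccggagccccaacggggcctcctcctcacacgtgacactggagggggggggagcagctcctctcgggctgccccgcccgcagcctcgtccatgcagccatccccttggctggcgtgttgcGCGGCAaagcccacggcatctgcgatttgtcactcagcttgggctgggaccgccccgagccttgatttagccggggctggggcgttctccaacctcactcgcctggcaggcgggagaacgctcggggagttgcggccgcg
Each window held the hexamer once, as its reverse complement GCGGCA in the letters shown. Of 16 RefSeq windows for 9 members, 6 held it, beside 11.6% of all 32851 windows, and 2 of the 6 belong to *Mest* and overlap each other. *Meg3*, which rose in *Fzd3* mutants, and *Igf2*, which was not called in the fit of 9 libraries, also had a window with it. The hexamer was thus not particular to the genes that fell. The *Igf2r* window had no match. The letters GGGGCCCC, bound by the PLAGL1 protein, occurred in 1 of the 16 windows, that of *Peg3*, beside 1.08% of all windows. The *Grb10* window shown had 45 CG pairs, more than 98.1% of all windows. A second *Grb10* window (chr11:12027922-12028221) had no match and 9 CG pairs. A match is a description of these letters and not a binding site.

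Markers of dividing cells moved with these genes. All 10 listed proliferation markers fell in *Fzd3* mutants, beside 14.8% of all genes, with a median difference of -0.75. Their summed level was 1015, 1084 and 921 CPM in controls, 566, 604 and 660 CPM in *Fzd3* mutants and 899, 976 and 1046 CPM in *Celsr3* mutants. The most abundant was *Top2a*, a topoisomerase of dividing cells, with a mean of 251 CPM. Of 9 radial glia markers, 7 fell, beside the same 14.8% of all genes, and none rose, with a median of -0.56. Their sum was 1374, 1426 and 1392 CPM in controls, 1058, 1119 and 1005 CPM in *Fzd3* mutants and 1253, 1289 and 1367 CPM in *Celsr3* mutants, with *Fabp7*, a fatty acid binding protein gene, highest at a mean of 432 CPM. The *Fzd3* mutant sums were the 3 lowest in both lists. The part of these cells in the fall of *Grb10*, *Plagl1* and *Igf2r* was not tested. In bulk tissue fewer cells of a type and less RNA per cell cannot be told apart.

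*Meg3*, the noncoding RNA made from the maternal copy next to *Dlk1*, was at 341, 315 and 397 CPM in controls, 438, 521 and 473 CPM in *Fzd3* mutants and 282, 321 and 318 CPM in *Celsr3* mutants. The *Fzd3* mutant libraries were the 3 highest, and *Celsr3* mutants overlapped with controls at their upper end. The difference between *Fzd3* mutants and controls was 0.45 (standard error 0.09, limma adjusted *P* = 0.00332), a ratio of means of 1.36. *Meg3* lies on chromosome 12 (chr12:109541001-109571726, plus strand), 77.7 kb beyond *Dlk1*. An exon of it holds the hairpin of miR-770 (chr12:109563692-109563785), whose mature forms follow with their seeds, bases 2 to 8, in capitals.
mmu-miR-770-5p: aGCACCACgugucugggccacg
mmu-miR-770-3p: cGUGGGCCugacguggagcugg
They are shown because a rise of the host transcript is the value measured here, and mature miRNAs were not.

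*Dlk1*, the paternally expressed neighbour, was at 0.366, 0.739 and 0.727 CPM in controls, 1.90, 1.40 and 1.05 CPM in *Fzd3* mutants and 0.518, 0.617 and 1.22 CPM in *Celsr3* mutants. All values were low but above the 3-read level. The *Fzd3* mutant libraries were above the controls, and *Celsr3* mutant library 4 lay among them. The difference from controls was 0.81 (standard error 0.25, limma adjusted *P* = 0.030). This call rested on few libraries. It did not pass the threshold without control library 1 (adjusted *P* = 0.109), without *Fzd3* mutant library 1 (0.121) or without *Fzd3* mutant library 2 (0.0743). It was also lost in an ordinary per-gene test (0.0883), and adjusted *P* ranged from 0.0176 to 0.121 over 18 alternative fits.

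**Figure D3:**
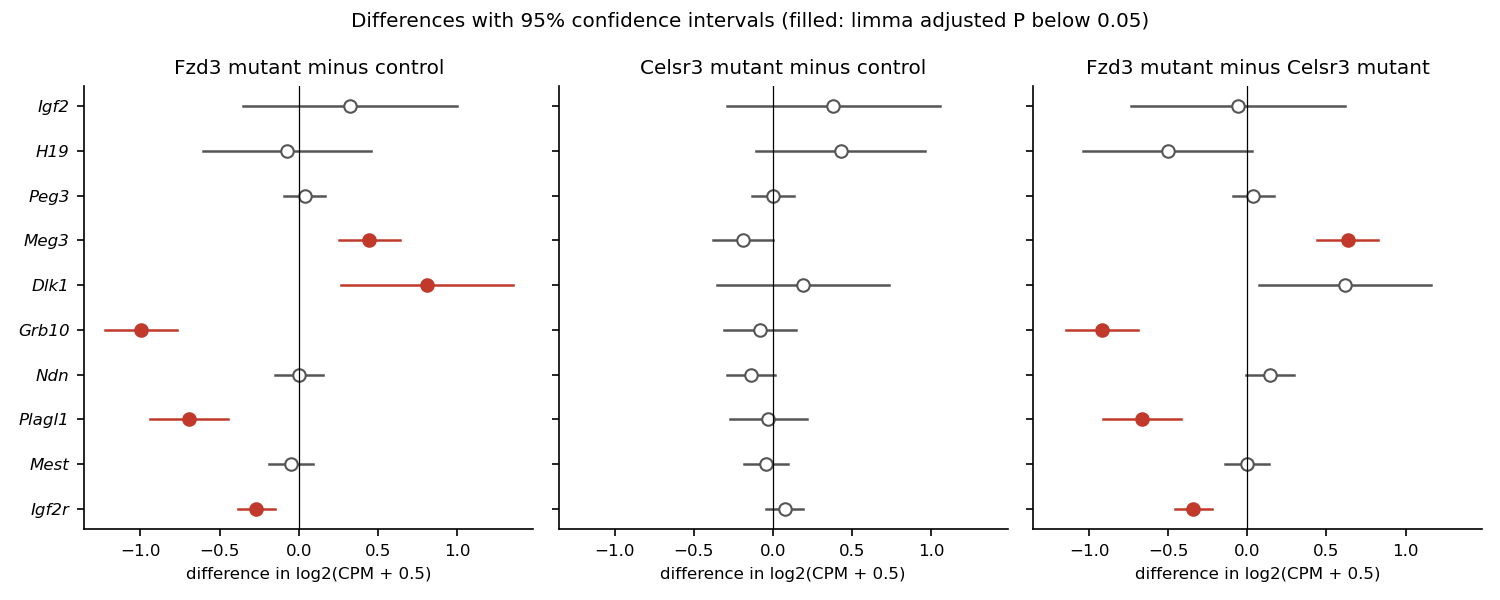
Differences in log2(CPM + 0.5) with 95% confidence intervals for the 3 comparisons, filled where the limma adjusted *P* was below 0.05. The *Fzd3* mutants differed from controls in 5 genes and from *Celsr3* mutants in 4, and no point is filled between *Celsr3* mutants and controls.

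*Igf2*, the growth factor gene, was at 24.70, 24.96 and 25.63 CPM in controls, 31.8, 35.1 and 28.1 CPM in *Fzd3* mutants and 24.3, 22.1 and 65.8 CPM in *Celsr3* mutants. The *Fzd3* mutants lay above all controls, and the *Celsr3* mutants split into 2 libraries just below the controls and library 4 far above every other. The difference between *Fzd3* mutants and controls was 0.32 (standard error 0.31, limma adjusted *P* = 0.465). Without *Celsr3* mutant library 4, which widens the spread shared by the fit, the same difference of 0.32 had a standard error of 0.08 and a limma adjusted *P* of 0.014. It passed with only the 2 genotypes compared (limma adjusted *P* = 0.0178) and with a replicate block (0.026), and library 4 has no bearing in these fits either. Adjusted *P* ranged from 0.014 to 0.666 over 19 alternatives. Only 3 of the 19 passed, all without the bearing of library 4, so they are not separate support. *Celsr3* mutants differed from controls by 0.38 (standard error 0.31, limma adjusted *P* = 0.9996) with library 4 and by -0.11 (standard error 0.09, limma adjusted *P* = 0.999) without it.

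*H19*, the noncoding RNA that shares enhancers with *Igf2*, was at 21.5, 19.4 and 23.3 CPM in controls, 22.3, 23.3 and 15.9 CPM in *Fzd3* mutants and 24.0, 21.3 and 46.9 CPM in *Celsr3* mutants. All genotypes overlapped, and library 4 of the *Celsr3* mutants was again the highest. *Fzd3* mutants differed from controls by -0.07 (95% interval -0.61 to 0.46, limma adjusted *P* = 0.846). For *Celsr3* mutants the difference was 0.43 (95% interval -0.11 to 0.96, limma adjusted *P* = 0.984), and without library 4 it was 0.08 (95% interval -0.25 to 0.41). Between *Fzd3* and *Celsr3* mutants *H19* differed by -0.50 (limma adjusted *P* = 0.143), and by -0.16 (limma adjusted *P* = 0.485) without library 4. Both genes lie on the minus strand of chromosome 7, *H19* at chr7:142575529-142578143 and *Igf2* at chr7:142650766-142666816, with 72.6 kb between them. Their Pearson's r over 9 libraries was 0.826, and over the 8 libraries without *Celsr3* mutant library 4 it was 0.0578, so the relation rested on that library. The ratio of *Igf2* to *H19* CPM was 1.099 to 1.289 in controls, 1.42 to 1.77 in *Fzd3* mutants and 1.01 to 1.41 in *Celsr3* mutants (1.012 and 1.034 without library 4), so that every *Fzd3* mutant library had the higher ratio, which was not tested.

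An exon of *H19* holds the hairpin of miR-675 (chr7:142577064-142577147, minus strand), shown with seeds in capitals because this RNA is known to be the precursor of this miRNA and was measured here only as the host.
mmu-miR-675-5p: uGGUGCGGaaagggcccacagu
mmu-miR-675-3p: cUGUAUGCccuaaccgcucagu
Introns of *Igf2* and *Mest* hold miR-483 and miR-335, which were likewise not measured.

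Of 14 listed markers of meningeal fibroblasts, 7 were in the table, and *Lum*, *Foxd1*, *Slc6a13*, *Twist1*, *Aldh1a2*, *Cyp1b1* and *Fmod* were not. Their summed level was 26.8, 31.5 and 25.8 CPM in controls, 34.1, 33.3 and 26.8 CPM in *Fzd3* mutants and 29.6, 30.7 and 204.6 CPM in *Celsr3* mutants. Only *Celsr3* mutant library 4 stood out, as for *Igf2* and *H19*. The highest in that library was *Col3a1*, a collagen gene, at 87.6 CPM against 2.61 to 6.86 CPM in the other 8 libraries. *Bgn*, a proteoglycan gene with the highest mean of the list (14.3 CPM), was at 25.7 CPM there. In *Fzd3* mutants 1 of the 7 rose in the fit of all 9 libraries, a share close to the 15.0% of all genes. This was *Ogn*, from 0.636, 0.378 and 0.527 CPM to 2.11, 2.57 and 2.14 CPM. Of the 7 differences from controls, 4 were positive and 3 negative. Library 4 widens the spread shared by that fit for these markers, as for *Igf2*. The count of calls therefore says little about the other markers, and a count without library 4 is not given here. Meninges are known to express *Igf2* strongly, and their part in the levels of *Igf2* and *H19* was not tested.

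**Figure D4:**
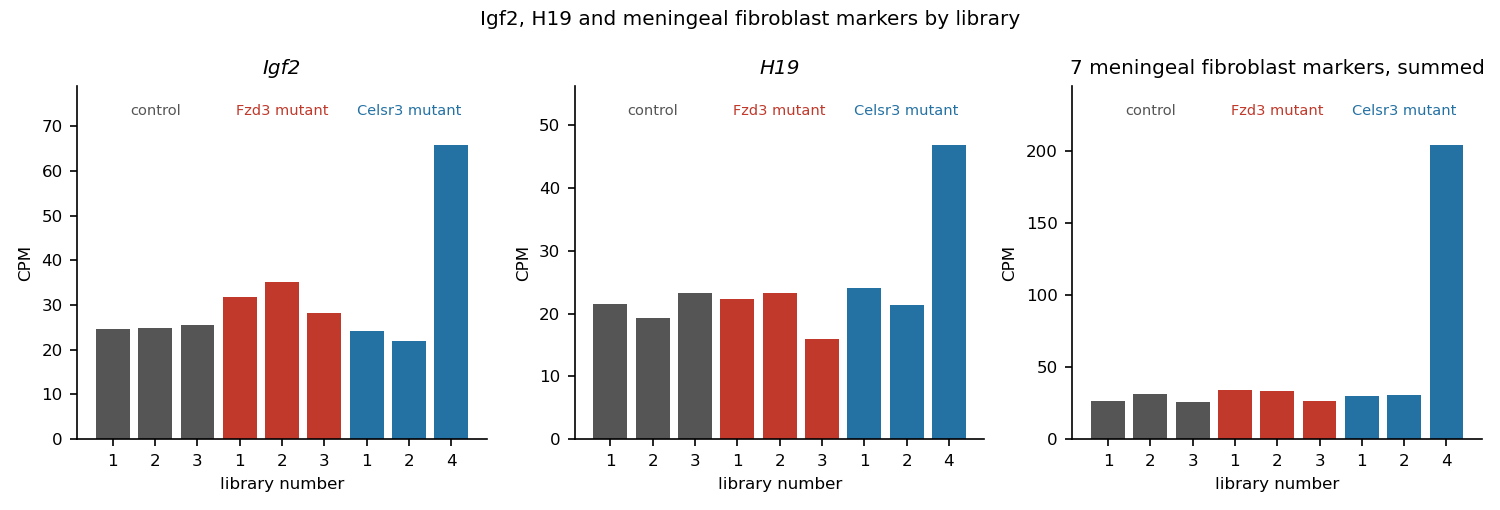
CPM of *Igf2*, of *H19* and of 7 meningeal fibroblast markers summed, by library, with bars from 0. *Celsr3* mutant library 4 was highest in all 3 panels, at 65.8, 46.9 and 204.6 CPM.

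*Peg3*, *Ndn* and *Mest* did not pass the threshold in any comparison. *Peg3* was at 71.1, 71.3 and 74.2 CPM in controls and between 67.8 and 78.7 CPM in all mutant libraries. *Ndn* was at 143, 132 and 160 CPM in controls and between 129 and 152 CPM in the mutants. *Mest* was at 126, 131 and 134 CPM in controls and between 115 and 133 CPM in the mutants. In each of these genes the 3 genotypes overlapped. The 95% intervals of the differences between *Fzd3* mutants and controls were -0.09 to 0.17 for *Peg3*, -0.15 to 0.16 for *Ndn* and -0.19 to 0.09 for *Mest*. *Mest* overlaps *Copg2* on the opposite strand and *Meg3* overlaps *Gm26906*. Genes without a value here also overlap members on the opposite strand, such as *Airn* for *Igf2r* and *Igf2os* for *Igf2*. Since the use of strand is not given in the sources used here, reads of such partners cannot be told apart.

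Between *Celsr3* mutants and controls 0 of the 10 genes passed the threshold in limma, beside 0.307% of all genes (45 genes), and 0 had an unadjusted *P* under 0.05, beside 800 of all genes. An ordinary per-gene test also called 0 of the 10. Nor did any of the 10 have libraries that did not overlap, beside 10.4% of all genes. The smallest adjusted *P* was that of *Meg3*, 0.927, with a difference of -0.19 (95% interval -0.38 to 0.0027). For *Grb10* the interval was -0.31 to 0.15 and for *Plagl1* -0.27 to 0.22, so that falls of the size seen in *Fzd3* mutants lay outside them. For *Igf2* the interval of -0.29 to 1.06 was wide because of library 4. The comparisons of both mutants share the same control libraries.

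The mutants were also compared directly. *Grb10* (-0.92), *Plagl1* (-0.67) and *Igf2r* (-0.34) were lower in *Fzd3* than in *Celsr3* mutants, beside 14.3% of all genes, and *Meg3* (0.64) was higher, beside 15.3% of all genes, with limma adjusted *P* of 0.000165, 0.00151, 0.00106 and 0.0005 in that order. In each of these 4 genes the libraries of the 2 mutants did not overlap, as in 6584 of all 14670 genes. *Dlk1* differed by 0.62 (limma adjusted *P* = 0.082). Without *Celsr3* mutant library 4, *Dlk1* (0.85, limma adjusted *P* = 0.0301) and *Igf2* (0.44, limma adjusted *P* = 0.00872) passed as well. With that library the *Igf2* difference was -0.06 (limma adjusted *P* = 0.906), and it was 0.02 without *Fzd3* mutant library 3, so that its sign was not settled. A replicate block, in which *Celsr3* mutant library 4 no longer bears on the difference, gave 0.47 for *Igf2*, which passed (limma adjusted *P* = 0.0188).

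The wider imprinted domains were examined next. Among 46 listed genes of imprinted domains in the table, members included, 9 were higher and 9 lower in *Fzd3* mutants, beside 15.0% and 14.8% of all genes, and 0 were called in *Celsr3* mutants, beside 0.307% of all genes. In the *Dlk1*-*Meg3* domain 4 of 5 genes rose, among them the members *Meg3* and *Dlk1* described above, and none fell. *Mirg*, a noncoding RNA downstream of *Meg3* and also maternally expressed, was at 6.44, 5.39 and 7.63 CPM in controls and at 8.22, 8.51 and 8.93 CPM in *Fzd3* mutants, a difference of 0.39 (standard error 0.12, limma adjusted *P* = 0.0304). *Begain*, a synaptic protein gene upstream of *Dlk1*, differed by 0.31 (limma adjusted *P* = 0.00602), and *Wdr25*, further upstream, by -0.06 (limma adjusted *P* = 0.699). All *Fzd3* mutant libraries lay above the controls for *Mirg* and *Begain*.

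Near *Grb10* and *Peg3* 1 neighbour of each rose. *Cobl*, an actin nucleator gene beside *Grb10*, was at 2.74, 1.76 and 5.22 CPM in controls and at 9.48, 7.88 and 6.30 CPM in *Fzd3* mutants, a difference of 1.26 (standard error 0.30, limma adjusted *P* = 0.00974) against the fall of *Grb10*. *Zim1*, a maternally expressed zinc finger gene beside *Peg3*, rose by 0.59 (limma adjusted *P* = 0.00838), from 3.41, 2.94 and 3.41 CPM to 4.71, 5.05 and 5.67 CPM. *Usp29*, transcribed away from *Peg3* on the other strand, differed by 0.17 (limma adjusted *P* = 0.179). In the *Ndn* domain 1 of 7 genes rose and 1 fell, close to the 15.0% and 14.8% of all genes. *Peg12* fell from 6.17, 6.55 and 4.92 CPM to 3.67, 2.96 and 3.36 CPM (-0.73, limma adjusted *P* = 0.0021), and *Atp10a*, an aminophospholipid transporter gene, rose by 0.43 (limma adjusted *P* = 0.0122). *Snrpn*, *Mkrn3*, *Magel2* and *Ube3a* did not pass the threshold. Nor did *Mrpl23* near *H19*, or *Copg2* and *Cpa4* near *Mest*.

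Other imprinted genes went both ways. Of 16 paternally expressed genes outside the list, 1 rose and 4 fell in *Fzd3* mutants, with a median of -0.06. Of all genes, 15.0% were higher and 14.8% lower. *Peg10*, a retrotransposon-derived gene, fell from 23.5, 27.1 and 24.9 CPM to 18.5, 17.7 and 17.2 CPM (-0.49, limma adjusted *P* = 0.00185). *Nnat*, the most abundant of them and a gene of differentiating neurons, fell from 626, 652 and 796 CPM to 593, 536 and 509 CPM (-0.33, limma adjusted *P* = 0.0148). Of 15 maternally expressed genes, 4 rose and 2 fell, beside the same 15.0% and 14.8% of all genes, with a median of -0.02. *Cd81*, a tetraspanin gene, rose from 78.8, 79.3 and 88.0 CPM to 111, 107 and 93.8 CPM (0.34, limma adjusted *P* = 0.00352). *Gnas*, the most abundant, differed by 0.03 (limma adjusted *P* = 0.605). The median difference over all genes was -0.00056.

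**Figure D5:**
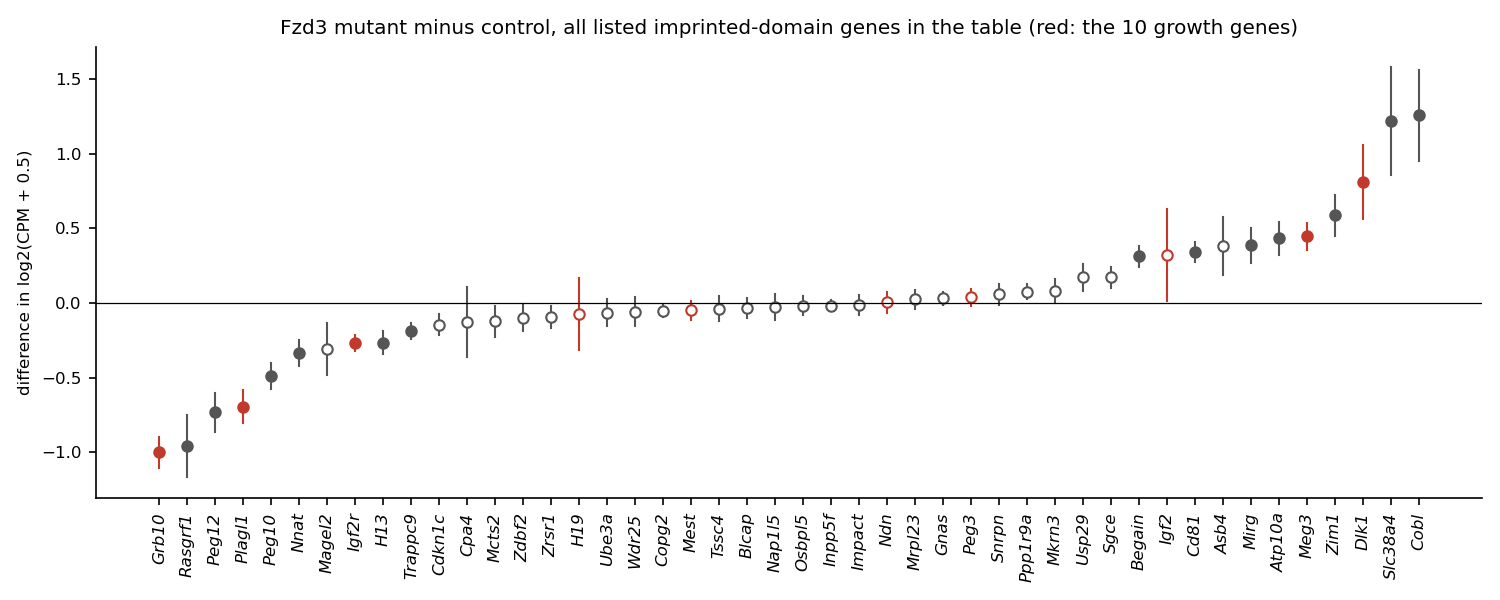
Differences in log2(CPM + 0.5) between *Fzd3* mutants and controls for 46 listed genes of imprinted domains, with standard errors, filled where the limma adjusted *P* was below 0.05 and red for the 10 growth genes. The genes run from *Grb10* (-0.999) to *Cobl* (1.26), with 9 called on either side.

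The growth factor pathway around *Igf2* was read from lists of its other genes. *Igf1*, the second IGF ligand, rose in *Fzd3* mutants from 1.46, 1.00 and 2.08 CPM to 4.09, 2.89 and 2.58 CPM (0.88, standard error 0.23, limma adjusted *P* = 0.0139). The receptor genes *Igf1r* (-0.14, limma adjusted *P* = 0.335) and *Insr* (-0.02, limma adjusted *P* = 0.846) did not pass. Of 6 genes of binding proteins and their proteases, 1 rose, a share close to that of all genes. This was *Pappa2*, a protease that frees IGF from its carriers, from 17.0, 20.5 and 13.6 CPM to 28.2, 24.97 and 27.1 CPM (0.65, limma adjusted *P* = 0.0051). The carriers *Igfbp5*, *Igfbp2* and *Igfbp3* did not pass in these mutants. Of 20 genes of insulin and IGF signalling, 2 rose and 2 fell, beside 15.0% and 14.8% of all genes, a difference that was not tested. *Pik3r1*, a regulatory subunit of PI3 kinase, rose from 153, 170 and 153 CPM to 252, 242 and 232 CPM (0.61, limma adjusted *P* = 6.36e-05), and *Irs1*, a receptor substrate, fell from 50.1, 55.5 and 49.4 CPM to 38.5, 35.2 and 42.6 CPM (-0.41, limma adjusted *P* = 0.00292). *Akt1*, a kinase gene of this pathway, did not pass. None of these genes passed the threshold in *Celsr3* mutants, beside 0.307% of all genes.

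Of 6 genes in a list of let-7 targets and their regulators, among them genes of proteins that bind *Igf2* mRNA, 5 fell and none rose in *Fzd3* mutants, beside 14.8% of all genes lower. Their median of -0.50 stood near those of the proliferation and radial glia markers (-0.75 and -0.56) in the same libraries. *Igf2bp2* was at 66.5, 73.5 and 69.5 CPM in controls and at 38.1, 44.4 and 41.8 CPM in *Fzd3* mutants (-0.75, limma adjusted *P* = 5.58e-05). *Hmga1*, a chromatin protein gene of fetal tissue, fell by 0.47 on the log2 scale (limma adjusted *P* = 0.00032), and *Igf2bp3* by 0.40 (limma adjusted *P* = 0.000501). Each *Fzd3* mutant library lay below each control for these 3 genes.

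Genes that maintain imprints and DNA methylation were also listed. Of 16, 6 fell and 1 rose in *Fzd3* mutants, with a median of -0.05, beside 14.8% of all genes lower and 15.0% higher. *Uhrf1*, which guides the maintenance methylase to new DNA, fell from 66.5, 71.2 and 61.0 CPM to 36.5, 35.7 and 39.5 CPM (-0.82, limma adjusted *P* = 1.76e-05). *Hells*, a chromatin remodeller, differed by -0.67 (limma adjusted *P* = 0.00052), *Dnmt1*, the maintenance methylase, by -0.20 (limma adjusted *P* = 0.00901) and *Trim28* by -0.15 (limma adjusted *P* = 0.0256). *Atrx* did not pass. The 1 that rose was *Zfp57*, named here after its values were seen, at 281, 238 and 279 CPM in controls and 309, 358 and 294 CPM in *Fzd3* mutants (0.27, limma adjusted *P* = 0.0364). *Uhrf1* and *Hells* are also genes of dividing cells. In *Celsr3* mutants 0 of the 16 were called, beside 0.307% of all genes. DNA methylation was not measured.

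Lists of markers of other cells were read in the same way, beside 15.0% of all genes higher and 14.8% lower in *Fzd3* mutants. Of 10 markers of cortical neurons 6 fell and 1 rose, with a median of -0.20, while their sum of 3237 to 3247 CPM in *Fzd3* mutants lay within the 3115 to 3474 CPM of controls. Of 12 endothelial markers 6 rose and none fell, with a median of 0.43, and *Flt1*, a VEGF receptor gene, went from 14.6, 13.7 and 14.8 CPM to 30.4, 24.2 and 24.5 CPM. Their sum was 216, 213 and 223 CPM in controls, 300.5, 294 and 258 CPM in *Fzd3* mutants and 225, 204 and 269 CPM in *Celsr3* mutants, with *Slc2a1* most abundant. Of 10 microglia markers 5 rose and none fell, with a median of 0.47. Their sum was 44.9, 52.1 and 51.4 CPM in controls, 81.0, 75.9 and 56.7 CPM in *Fzd3* mutants and 51.2, 55.1 and 64.6 CPM in *Celsr3* mutants, with *Csf1r* most abundant. Both sums were higher in every *Fzd3* mutant library than in any control. Of 8 mural markers 1 rose, of 8 erythroid markers 1 fell and of 8 subpallial markers 1 fell, shares no larger than in the whole table. Both of the 2 muscle, cartilage and bone markers in the table fell, as did both of the 2 diencephalic markers. The part of these cells in the rise of *Meg3* and *Dlk1* was not tested.

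For each gene the 3 most similar genes were named by Pearson's r of log2(CPM + 0.5) over the 9 libraries, among 14382 genes. These r values are the highest of many and are descriptions only. *Grb10* was most like *Ccna2*, a cyclin gene (r = 0.9955), then *Cdca7* and *Gtf2i*, and the r of deviations from genotype means with *Ccna2* was 0.948. *Plagl1* was most like *Ss18* (0.994), *Zfp664* and *Sall1*, *Igf2r* like *Mocs2* (0.9802), *Dvl3* and *Nadk*, and *Meg3* like *Zmym3* (0.9904), *Thbs3* and *Catsperg1*. *Dlk1* was most like *Timp3* (0.962), *Tnip2* and *Dse*. These 5 are the genes that differed in *Fzd3* mutants, so that a genotype difference is part of each r. For *Igf2* the closest were *Sned1* (0.979), *Itm2a* and *Gpr124*, and for *H19* *Postn* (0.9595), *Cd248* and *Mfsd7c*. Without *Celsr3* mutant library 4 these r values were lower, at 0.882 for *Sned1* and 0.789 for *Postn*. *Ndn* was most like *Grik1* (0.983), *Dclk3* and *Fam19a1*, *Mest* like *Ccdc124* (0.944), *Nudt9* and *Dpf1*, and *Peg3* like *Zkscan16* (0.944), *Cox11* and *Pla2g4c*.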

How the data were processed

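RNA from E16.5 cortex was sequenced by a company. The authors deposited CPM values for 14670 genes, scaled per library after genes of low expression had been dropped. The submitters' processing notes name FastQC, TopHat, TopHat2, Bowtie, Cufflinks 2.1.1 and edgeR 2.12, and list GRCm38 and GRCh37. The annotation, the role of each build and the use of strand are not given in the sources used here. The labels name Trizol for the RNA and the methods an RNeasy kit.

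Groups came from the labels. The tests were run with limma 3.58.1 under R 4.3.3 (linear models per gene with a variance trend) on log2(CPM + 0.5), with genotype as the only term, two-sided, and Benjamini-Hochberg adjustment over all genes. Dropping genes below a mean of 0.5 CPM took out 0 genes. CPM are not counts, so no test for counts was run. The fit was tested on simulated data. Tables used Python 3.11.15. Exon unions and positions came from GENCODE M21 (GRCm38), which need not be the authors' annotation. Sequences came from RefSeq tables (GRCm38.p6).

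The members and gene lists were chosen with earlier results of these data known. Named genes were the members, the listed domain genes, and from each other list the 3 most abundant and the 2 called genes with the smallest *P* per mutant. Alternatives varied the pseudocount, filter, scaling, libraries, replicate block and moderation.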

Additional observations from a re-analysis of the deposited data

Results flagged for a closer look

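For 4 of the 10 genes the effects of the 2 mutations differed when the mutants were tested against each other, and both effects are measured against the same controls. The *Fzd3* mutant effect minus the *Celsr3* mutant effect was -0.92 for *Grb10*, -0.67 for *Plagl1*, -0.34 for *Igf2r* and 0.64 for *Meg3* on the log2(CPM + 0.5) scale. Among all 14670 genes 4346 were called in this comparison. Each of the 4 passed the limma threshold in all 19 alternative fits. The cause was not tested.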

How the results depend on the processing

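With 3 libraries per genotype, small differences were hard to detect, and parental alleles, single cell types, protein and methylation were not measured. *Grb10*, *Plagl1*, *Igf2r* and *Meg3* kept their calls between *Fzd3* mutants and controls, and between the mutants, in all 19 alternative fits. The call of *Dlk1* was kept in 14 of 18. The fit without a filter on low values is counted among these but repeats the main fit, since the filter took out 0 genes. All results are given as first computed.

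Leaving out 1 library at a time gave 4 to 6 called members between *Fzd3* mutants and controls and 4 to 6 between the mutants, where 6 came without *Celsr3* mutant library 4. No fit called a member between *Celsr3* mutants and controls. The counts of all genes ran from 2958 to 4312 between *Fzd3* mutants and controls, from 39 to 53 for *Celsr3* mutants and from 2971 to 4471 between the mutants. An ordinary per-gene test gave 24 genes for *Celsr3* mutants.

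Signs turned only for differences that had not been called. With 1 library left out, *Fzd3* mutants minus controls ran from -0.1758 to 0.09498 for *H19*, -0.06018 to 0.07728 for *Ndn* and -0.08636 to 0.01759 for *Mest*. For *Celsr3* mutants minus controls the ranges were -0.1144 to 0.6638 for *Igf2*, -0.06283 to 0.04363 for *Peg3*, -0.04009 to 0.3403 for *Dlk1*, -0.1817 to 0.02476 for *Grb10*, -0.1223 to 0.0889 for *Plagl1* and -0.08034 to 0.01182 for *Mest*. Between the mutants they were -0.3406 to 0.4375 for *Igf2*, -0.005862 to 0.1006 for *Peg3* and -0.05889 to 0.06058 for *Mest*. Among these fits *Igf2* and *Dlk1* turned in *Celsr3* mutants minus controls only without *Celsr3* mutant library 4. Between the mutants *Igf2* turned without that library and also, to 0.02231, without *Fzd3* mutant library 3. Rescaling the columns moved *Peg3* in *Celsr3* mutants to 0.01032 and *Mest* between the mutants to 0.0008811, and scaling by median ratios moved the former to 0.0002075. These differences were near 0 from the start.

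The libraries were not treated as paired, since the sources do not pair them. The mean r of deviations between libraries of the same number was -0.141 for controls and *Fzd3* mutants, 0.0298 for controls and *Celsr3* mutants and 0.0559 for the mutants, against 0.0696, -0.00855 and -0.0159 for other numbers. A replicate block gives each library number its own level, so *Celsr3* mutant library 4, the only library of that number, no longer bears on the differences. With it, *Celsr3* mutants minus controls became -0.1474 for *Igf2*, -0.07681 for *Dlk1* and 0.04307 for *Peg3*. The mutants then differed by 0.4705 for *Igf2*, -0.005305 for *Peg3* and 0.03514 for *Mest*. Of these differences, that of *Igf2* between the mutants passed the threshold with the block (limma adjusted *P* = 0.0188). The counts of all genes with this block were 29 for *Celsr3* mutants and 2101 between the mutants.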
